A study of Mus musculus with 1037 samples.

Results

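The engulfment machinery that acts after a corpse receptor has bound its target was examined here through 10 genes: Lrp1, Gulp1, Abca1, Elmo1, Elmo2, Dock1, Dock5, Rac1, Rhog and Crk. They were chosen by name for their role, not by their values, and each matched 1 of the 55335 gene rows of the counts table by its Ensembl identifier. The data were Smart-seq2 libraries of single cells sorted from mouse skin, where cells of the outer root sheath, the outer epithelial layer of the hair follicle, take up dying neighbours when the follicle regresses. All cells were wild type, and no treatment is named. Cells of 3 to 6 animals were pooled for each stage and no animal is named, so every group below is 1 sample, no group has a replicate and no test between groups was possible. The sample labels have no field for age, sex or strain.

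At late anagen (AnaVI), the end of hair growth, the labels give 1 sort of the lower outer root sheath, named LOS, and 2 sorts of the upper-middle outer root sheath, named MOS and UOS. At CatVI, late in the regression phase, they give 6 plates of the upper outer root sheath whose names begin with P17f, a prefix that the labels do not explain. Plates 1 and 2 are named Phago alive, plates 3 and 4 NonPhago alive, plate 5 Phago apop and plate 6 NonPhago apop. At CatVII, a later step of regression, they give 2 sorts of the upper outer root sheath, named OSalive and OSapop. The labels do not say how Phago, NonPhago, alive and apop were set, so the names are used as names.

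In this pathway, receptors that face outwards bind a dying cell directly or through a soluble bridge. LRP1, a large endocytic receptor, recognises calreticulin on corpses, and its tail binds the adaptor GULP1. ABCA1 exports cholesterol and phospholipid to apolipoproteins and is switched on in phagocytes that carry a lipid load. CRK, ELMO and DOCK proteins form the signalling complex beneath the receptor. RHOG recruits ELMO, and DOCK1 and DOCK5 load RAC1 with GTP, after which RAC1 drives the actin cup that closes around the corpse.

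The values below come from the 463 of 1035 cells in which 2000 or more genes were detected. There were 39 cells in LOS, 38 in MOS, 19 on plate 1, 9 on plate 2, 15 on plate 5, 14 on plate 6 and 92 in OSapop. UOS held 24.2% of the 463, and all the rest were in OSalive. No cell passed on plates 3 and 4, where 67 and 57 cells held no count of any of the 10 genes, so the NonPhago alive state at CatVI is not described. The counts used ran from 753208 on plate 6 to 9.61e+07 in OSalive. Levels are counts per 1000000 (CPM): the summed count of a gene over the cells of a group, divided by the group's total of gene counts and multiplied by 1000000. The spike-ins and 1 identifier without a symbol, which took 65.5% of all counts, were left out of that total. Intervals are exact 95% Poisson or binomial ones. The reads carry no molecular identifier, so that copies of 1 molecule count more than once, and the intervals hold counting error alone.

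All 8 markers of outer root sheath epithelium were found in each group, with a summed level from 2666 CPM on plate 2 to 16236 CPM on plate 5. LOS stood apart from the other sorts. All 10 leukocyte markers summed there to 121.4 CPM against 0 to 31.02 CPM elsewhere, all 6 fibroblast markers to 3889 CPM against 9.47 to 977 CPM, and all 6 melanocyte markers to 442 CPM against at most 34.5 CPM in every group but plate 2. Plate 2 had 456 CPM of the melanocyte markers, with all 6 found, and plate 1 had 4.84 CPM with Tyrp1, Mlana, Kit and Sox10 at 0. Counts of Ptprc, Pdgfra or Dct, which mark leukocytes, fibroblasts and melanocytes, were found in 19 of the 39 LOS cells. Such cells were not limited to LOS. On plate 2 there were 4 of them against 5 cells without such counts, and in UOS 29 against 83. MOS, plate 1, OSalive and OSapop had 5, 4, 14 and 6 such cells, and plates 5 and 6 had 1 each. The study's sort was set to exclude cells positive for CD45, CD31, CD117 or CD140a, the products of Ptprc, Pecam1, Kit and Pdgfra. The 4 endothelial markers summed to 177.5 CPM in LOS, to 126.6 CPM on plate 1 and to at most 21.6 CPM elsewhere. Cells with counts of Ptprc, Pdgfra or Dct were left out in an alternative, but cells with counts of the endothelial markers were not. Beyond that, the part of these markers in the values of LOS and plates 1 and 2 was not tested.

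Rac1 (ENSMUSG00000001847.14, GRCm39 chr5:143489389-143514493, minus strand), the GTPase on which the pathway converges, showed an order by stage. Its level was 190.4 CPM in LOS, 234.6 CPM in MOS and 280.4 CPM in UOS. At CatVI it was 91.9 CPM on plate 1, 53.6 CPM on plate 2, 55.2 CPM on plate 5 and 61.1 CPM on plate 6. At CatVII it was 94.2 CPM in OSalive and 57.6 CPM in OSapop. All 6 catagen groups lay below all 3 AnaVI groups. The counting intervals of plates 2, 5 and 6 and OSapop overlapped. So did that of plate 1 (79.8 to 105.2 CPM) with those of plate 6 and OSalive (92.3 to 96.2 CPM), whereas those of LOS, MOS and UOS were separate. Gulp1 was also lower in all 6 catagen groups, at 4.78 CPM or less against 5.94 CPM or more. Its intervals in LOS and OSalive overlapped, and 1 cell held 47.8% of its 23 LOS counts. Without cells with counts of Ptprc, Pdgfra or Dct, Gulp1 was at 1.39 CPM (2 counts) in LOS and 5.21 CPM in OSalive. Its order thus did not hold under that choice, which was made after seeing the data. The share of all genes with all catagen groups below all AnaVI groups was not counted.

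Median cells gave the same order of stages for Rac1, at 137.5 to 250.8 CPM in the AnaVI groups and 27.5 to 74.1 CPM in the catagen groups. A count was found in 99.1% of UOS cells, with a median cell at 250.8 CPM, and in 96.0% of OSalive cells, with a median cell at 74.1 CPM. Of the OSalive cells, 95.2% lay under the median UOS cell, as did 26 of the 28 cells of plates 1 and 2. When each cell was thinned to 20000 counts, Rac1 was found in 98.2% of UOS cells, 74.2% of OSalive cells and 54.2% of 83 OSapop cells, with 3 UOS, 1 OSalive and 9 OSapop cells below that depth left out. The corresponding Clopper-Pearson intervals were 93.5 to 99.8%, 65.6 to 81.6% and 42.9 to 65.2%. Shares of cells did not keep the order of stages in every group. The thinned share was 88.9% of 18 cells on plate 1, against 78.3% of 23 LOS cells and 87.1% of 31 MOS cells.

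The log2 ratio of Rac1 in OSalive to UOS was −1.57 (95% counting interval −1.62 to −1.53), a level 2.98 times lower. It was the only 1 of the 10 genes that differed 2-fold or more between these groups, against 36.5% of the 14158 genes that had a sum of 100 or more counts in the pair of groups. Of those genes, 12.7% were higher and 23.8% lower by that much, or 18.5% and 17.4% with TMM factors. The median log2 ratio was −0.21 for the 10 genes and −0.21 for all genes tested. Relative to the median gene, Rac1 stood at −1.36. It stayed past 2-fold under all 17 alternatives, between −1.01 with LOS as the reference and −2.28 with OSapop in place of OSalive, both of which were chosen after seeing the data.

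Transcript length moved with this comparison. Among genes whose longest annotated transcript is under 2 kb, the median log2 ratio of OSalive to UOS was −0.96, and 49.5% were 2-fold or more lower. In genes of 4 to 8 kb, the class of Rac1 (4.31 kb), the median was −0.16 and 17.8% were that much lower. Over 8 kb the median was −0.09. The part of length in the Rac1 difference was not tested, and stage, sort, plate and library batch cannot be told apart.

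**Figure D1:**
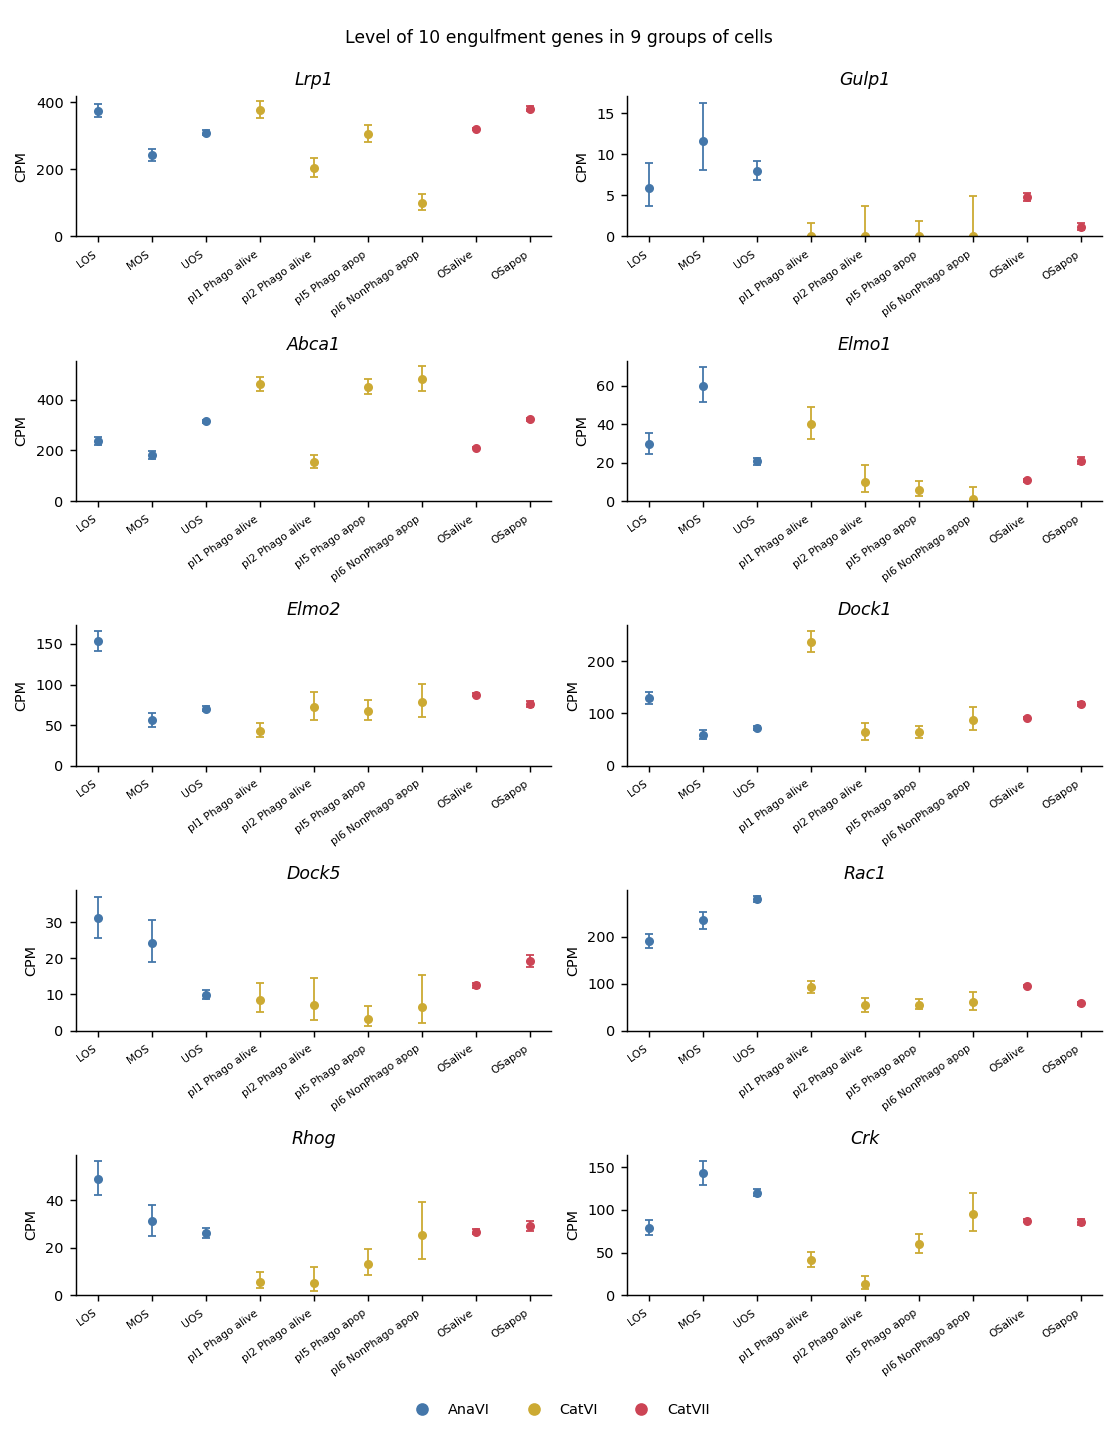
Level of each of the 10 genes in CPM (y axis, linear from 0) in the 9 groups of cells (x axis). Points are the level of the summed cells, bars the exact 95% Poisson interval, and colours the stage. Rac1 lay between 190.4 and 280.4 CPM in the 3 AnaVI groups and between 53.6 and 94.2 CPM in the 6 catagen groups.

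**Figure D2:**
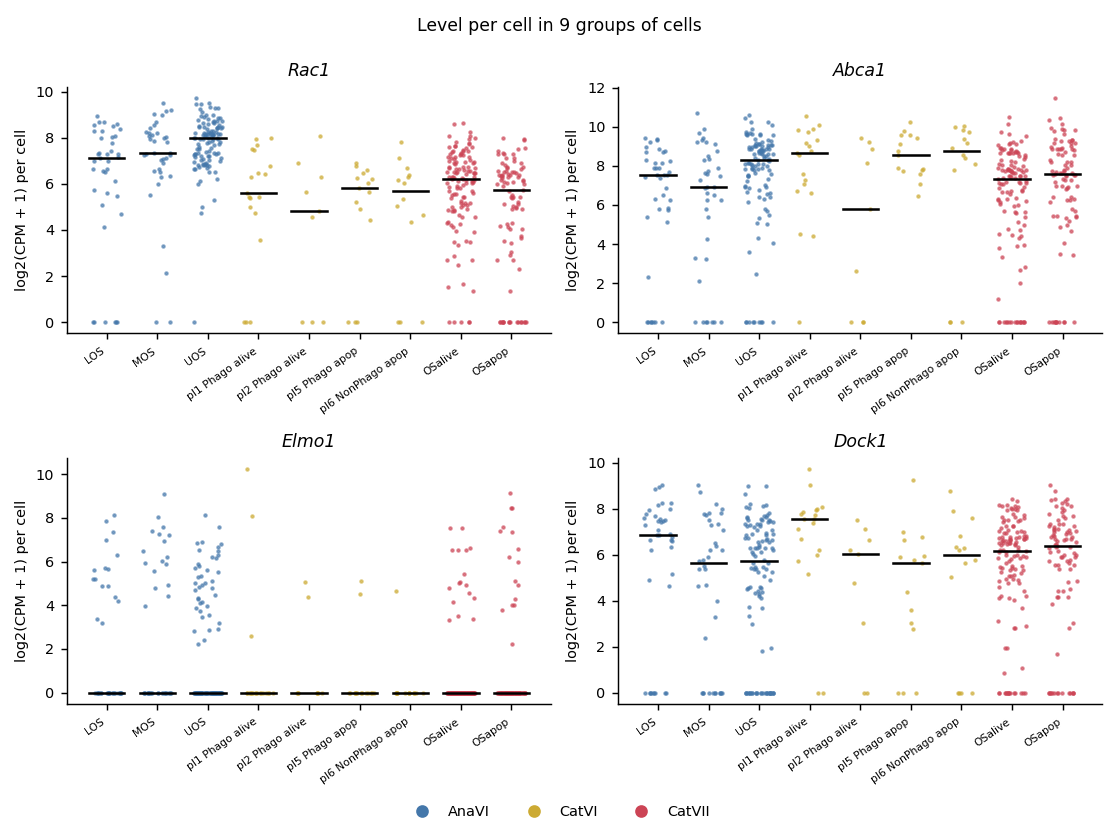
Level per cell as log2(CPM + 1) (y axis) of Rac1, Abca1, Elmo1 and Dock1 in the 9 groups (x axis). Each point is 1 cell and each black line the median cell. The median cell of Rac1 was at 250.8 CPM in UOS and 74.1 CPM in OSalive, and for Elmo1 the median cell was at 0 in each group.

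Rhog (ENSMUSG00000073982.11, chr7:101887439-101905261, minus strand), the GTPase upstream of ELMO, had its highest level in LOS, at 49.1 CPM, which was 23.7 CPM without the 19 cells with counts of Ptprc, Pdgfra or Dct, a choice made after seeing the data. It was at 31.2 CPM in MOS and 26.2 CPM in UOS, and at 26.8 CPM in OSalive and 29.2 CPM in OSapop. On the CatVI plates it was at 5.71 CPM on plate 1, 5.05 CPM on plate 2, 13.2 CPM on plate 5 and 25.2 CPM on plate 6. The Phago alive plates were the lowest, and their intervals overlapped each other and that of plate 5. The log2 ratio of OSalive to UOS was 0.04 (−0.09 to 0.16), within counting error, and turned to −0.08 with the total of all genes. Per unit of transcript length, Rac1 exceeded Rhog 6.75-fold in UOS, 2.21-fold in OSalive and 1.24-fold in OSapop, a comparison inside each group that needs no scaling between libraries. The excess was 2.44-fold in LOS and 4.74-fold in MOS. On plates 1, 2 and 5 it was 10.1-fold, 6.68-fold and 2.65-fold, so it kept no order of stages. On plate 6 both were level within counting error (log2 ratio 0.61, −0.19 to 1.46).

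Dock1 (ENSMUSG00000058325.6, chr7:134272372-134775375, plus strand) encodes the exchange factor that pairs with ELMO to activate RAC1. Its level was 129.2 CPM in LOS, 59.3 CPM in MOS and 71.8 CPM in UOS. At CatVI it was 236.9 CPM on plate 1, 63.7 CPM on plate 2, 64.2 CPM on plate 5 and 87.6 CPM on plate 6. At CatVII it was 91.9 CPM in OSalive and 118.1 CPM in OSapop. Plate 1 stood above every other group, while plate 2, with the same label, overlapped MOS, UOS and plates 5 and 6.

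Dock5 (ENSMUSG00000044447.5, chr14:67989584-68171265, minus strand), a related exchange factor, was less abundant. It was at 30.999 CPM in LOS, 24.3 CPM in MOS and 9.95 CPM in UOS. On the CatVI plates it ran from 3.16 CPM on plate 5 to 8.35 CPM on plate 1, and at CatVII it was at 12.5 CPM in OSalive and 19.2 CPM in OSapop. The intervals of LOS and MOS overlapped, and both lay above UOS. Per unit of length, Dock1 exceeded Dock5 in each group, from 3.65-fold in MOS to 42.5-fold on plate 1, and by 10.8-fold in UOS and 11.01-fold in OSalive.

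Elmo1 (ENSMUSG00000041112.17, chr13:20274428-20792523, plus strand), which carries the RHOG signal to DOCK, had the widest range over the groups of the 10 genes. Its level was 29.4 CPM in LOS, 59.9 CPM in MOS and 20.7 CPM in UOS. At CatVI it was 40.003 CPM on plate 1, 10.1 CPM on plate 2, 5.79 CPM on plate 5 and 1.33 CPM on plate 6, and at CatVII 10.8 CPM in OSalive and 20.9 CPM in OSapop. MOS was highest, and UOS and OSapop did not differ beyond counting error. Elmo1 was found in few cells: 36.6% in UOS, 13.6% in OSalive and 17.4% in OSapop. On plate 1 it was found in 3 cells, 1 of which held 76.9% of its counts.

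Elmo2 (ENSMUSG00000017670.16, chr2:165129951-165168438, minus strand), the second ELMO scaffold, was steadier. It was at 153.4 CPM in LOS, 56.2 CPM in MOS and 70.3 CPM in UOS, between 43.1 CPM (plate 1) and 78.3 CPM (plate 6) at CatVI, and at 87.2 CPM in OSalive and 76.3 CPM in OSapop. LOS lay above every other group. Without the 19 LOS cells named for Rhog, LOS still had 118.4 CPM of Elmo2 and 33.4 CPM of Dock5. Per unit of length, Elmo2 exceeded Elmo1 3.88-fold in UOS, 9.24-fold in OSalive and 4.17-fold in OSapop, and both were level within counting error in MOS (log2 ratio 0.10, −0.22 to 0.41) and on plate 1 (0.30, −0.13 to 0.73).

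Crk (ENSMUSG00000017776.15, chr11:75570085-75597737, plus strand), the adaptor that links DOCK1 to tyrosine-phosphorylated partners, was at 78.8 CPM in LOS, 142.8 CPM in MOS and 120.02 CPM in UOS. It was at 40.9 CPM on plate 1, 13.1 CPM on plate 2, 59.5 CPM on plate 5 and 95.6 CPM on plate 6, and at 87.6 CPM in OSalive and 85.9 CPM in OSapop. The Phago alive plates had the lowest levels and MOS the highest. In MOS, 1 cell held 69.8% of the Crk counts, and the median cell was at 58.3 CPM there against 71.5 CPM in UOS. OSalive and OSapop differed by a log2 ratio of −0.027 (−0.10 to 0.04), within counting error.

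Lrp1 (ENSMUSG00000040249.15, chr10:127374012-127457017, minus strand), the receptor of the set, was abundant in each group. It was at 373 CPM in LOS, 242.5 CPM in MOS and 309 CPM in UOS. At CatVI it was at 376 CPM on plate 1, 204.2 CPM on plate 2, 306 CPM on plate 5 and 100.9 CPM on plate 6, and at CatVII at 319.9 CPM in OSalive and 379.9 CPM in OSapop. LOS, plate 1 and OSapop overlapped at the top, and plate 6 was the lowest. The log2 ratio of OSalive to UOS was 0.05 (0.02 to 0.09), and turned to −0.06 with the total of all genes. Lrp1 was found in 96.4% of UOS cells, 94.4% of OSalive cells and all 92 OSapop cells.

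Gulp1 (ENSMUSG00000056870.9, chr1:44590595-44836044, plus strand), the adaptor on the LRP1 tail, was scarce. Its level was 5.94 CPM in LOS, 11.6 CPM in MOS, 7.97 CPM in UOS, 4.78 CPM in OSalive and 1.17 CPM in OSapop. No count was found on the 4 CatVI plates. There, 3 counts would be a level of 1.32 CPM on plate 1, 3.03 CPM on plate 2, 1.58 CPM on plate 5 and 3.98 CPM on plate 6. The counting interval of OSalive was 4.36 to 5.24 CPM and that of plate 6 reached 4.90 CPM, so a difference between them was not detectable at this depth, nor was one between OSapop and any of the 4 plates. The intervals of plates 1, 2 and 5 ended below that of OSalive, at 1.62, 3.73 and 1.94 CPM. Gulp1 was found in 22.3% of UOS cells, 9.60% of OSalive cells and 8.70% of OSapop cells.

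Abca1 (ENSMUSG00000015243.4, chr4:53030787-53159900, minus strand), the lipid exporter, was at 237.1 CPM in LOS, 183.2 CPM in MOS and 315 CPM in UOS. At CatVI it was at 461 CPM on plate 1, 155.7 CPM on plate 2, 451 CPM on plate 5 and 482 CPM on plate 6, and at CatVII at 211.6 CPM in OSalive and 322 CPM in OSapop. Plates 1, 5 and 6 overlapped and lay above all other groups, while plate 2 was the lowest and overlapped MOS. Plates 1 and 2, with the same label, thus lay far apart.

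The Abca1 promoter is shown because the gene is a textbook target of the nuclear receptor pair LXR and RXR. Such receptors bind 2 copies of the half-site AGGTCA in a row. The window from 250 bases before to 50 bases after the start, from RefSeq on GRCm38.p6, was searched on both strands for 2 such copies with 4 bases between them, allowing 3 mismatches. The 86 bases below (GRCm38.p6 chr4:53159917-53160002, minus strand, 5′ to 3′) hold a match, in capitals, from 67 to 52 bases before the start, on the strand opposite to the gene.

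Abca1: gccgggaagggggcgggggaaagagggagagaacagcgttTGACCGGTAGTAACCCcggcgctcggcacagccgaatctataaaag

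Promoters of 8 of the 10 genes were found, 11 in all, and Dock5 and Rac1 had no entry. A match with the 4-base spacer lay in 3 of the 11, of Abca1, Elmo2 and Rhog, and in 21.9% of all 32851 promoters. With 2 bases between the copies, a match lay in 0 of the 11 and in 21.7% of all promoters. The 2 motifs share their half-sites and can overlap. The matches describe letters and not binding.

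Across genes, levels were compared per unit of length, as the count divided by the longest annotated transcript and scaled to a sum of 1000000 over annotated genes. On this scale Rac1 was first of the 10 in LOS (183.6), UOS (280.6) and OSalive (129.5), and in MOS, where it stood level with UOS. Abca1 was first on plates 1 (258.5), 2 (58.4), 5 (237.8) and 6 (242.3) and in OSapop (185.7). Gulp1 or Dock5 was last in each group. The order depended on the length used. With the mean length of a gene's annotated transcripts, Lrp1 came first in each group except plate 6, where Abca1 did.

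OSapop was then set against OSalive within CatVII. Gulp1 was the only 1 of the 10 genes that differed 2-fold or more, with a log2 ratio of −2.04 (−2.62 to −1.50), from 30 and 460 counts. Of 13885 genes, 21.6% differed by that much, 9.44% higher and 12.2% lower. With each cell given equal weight the ratio was −0.64. Elmo1 was next, at 0.96 (0.81 to 1.11). It was at 0.22 when only the first cell of each well label was kept and at 2.50 in thinned cells. Rac1 was at −0.71 (−0.79 to −0.63), Dock5 at 0.62 (0.47 to 0.77) and Abca1 at 0.61 (0.57 to 0.64). The other 5 genes lay between −0.19 for Elmo2 and 0.36 for Dock1, and Crk and Rhog, both near 0, turned their sign under 1 scaling each. The median of the 10 genes was 0.19, and that of all genes 0.04. Under each of the 4 other scalings, Elmo1, Dock5, Abca1, Dock1 and Lrp1 stayed above 0 and Rac1, Elmo2 and Gulp1 below it.

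The Phago alive plates of CatVI, summed, were set against UOS, the reference that OSalive shared. Of the 10 genes, 5 differed 2-fold or more, against 44.8% of 11280 genes, 11.4% higher and 33.4% lower (17.96% and 25.1% with median-of-ratios factors). Dock1 was higher, at 1.36 (1.23 to 1.50). Rac1 was lower at −1.80 (−1.99 to −1.63), Crk at −1.89 (−2.18 to −1.61) and Rhog at −2.25 (−3.01 to −1.57). Gulp1 had no count against 7.97 CPM in UOS, and with 3 counts set for the plates its level was 8.67-fold lower. That value follows from the 3 counts and is no bound. Its log2 ratio lay between −3.48 and −0.49 under the 16 alternatives. The Dock1 value came from plate 1, without which it was −0.17, while Rac1, Crk and Rhog were past 2-fold with either plate left out. Rhog had only 13 counts on plate 1, 76.9% of them in 1 cell, and 5 counts on plate 2. Elmo1, at 0.58, turned to −1.03 without plate 1. Length moved with this comparison too. The median log2 ratio was −1.45 under 2 kb, −0.76 in the class of 2 to 4 kb that holds Rhog (2.72 kb) and Gulp1 (3.42 kb), −0.26 in the class of 4 to 8 kb that holds Rac1, Crk and Dock1, and 0.02 over 8 kb. The shares of genes 2-fold or more lower in these classes were 65.05%, 42.01%, 26.8% and 17.9%, and the part of length in the members' values was not tested.

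Plates 1 and 2 carry the same name, so their difference shows how far 2 plates of 1 sort can part. Of the 7 genes with enough counts, 4 were 2-fold or more lower on plate 2, against 46.1% of 3790 genes in either direction, 11.7% higher and 34.5% lower (17.9% and 26.2% with median-of-ratios factors). They were Dock1 (−1.90), Elmo1 (−1.98), Crk (−1.64) and Abca1 (−1.57). In cells with 4000 or more detected genes, Elmo1 turned to 4.46, from under 100 counts. The median of all genes was −0.47. Plate 2 was also the plate with the melanocyte markers named above. MOS and UOS, which share a label of region and stage, parted less: of the 10 genes, Elmo1 (−1.54) and Dock5 (−1.29) were 2-fold or more lower in UOS, against 28.9% of 11113 genes, 21.2% higher and 7.71% lower.

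Phago apop was compared with Phago alive and with NonPhago apop inside CatVI. Against the Phago alive plates, 2 of 7 genes were 2-fold or more lower on plate 5, against 32.9% of 5259 genes in either direction, 10.7% higher and 22.2% lower. These were Elmo1 at −2.42 (−3.47 to −1.52), from 11 counts on plate 5, and Dock1 at −1.52 (−1.82 to −1.24). Both rested on plate 1: without it, Dock1 was at 0.011 and Elmo1 at −0.80, while Abca1 and Crk passed 2-fold at 1.53 and 2.18. In cells with 4000 or more detected genes Elmo1 turned to 0.89, from under 100 counts. Dock1 was at −0.96 with each cell given equal weight and at −0.83 in thinned cells. Against NonPhago apop, Lrp1 was the only 1 of 6 genes past 2-fold, at 1.60 (1.25 to 1.96), against 29% of 2837 genes, 20.8% higher and 8.21% lower. Its ratio lay between 1.36 and 1.65 under all 13 alternatives. Gulp1, Dock5 and Rhog had under 100 counts in these comparisons, as had Elmo1 in the last.

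Within AnaVI, UOS and LOS differed 2-fold or more in 2 of the 10 genes, against 28.4% of 11472 genes, 14.3% higher and 14.1% lower (18.1% and 10.9% with TMM factors). Dock5 was lower in UOS at −1.64 (−1.96 to −1.31) and Elmo2 at −1.13 (−1.26 to −0.99). Rhog (−0.91) and Dock1 (−0.85) lay in the same direction, and Crk (0.61) and Rac1 (0.56) in the other. Without the cells that had counts of Ptprc, Pdgfra or Dct, 5 genes passed 2-fold, against 24.8% of 10096 genes higher and 13.2% lower. Dock5 was then at −1.69, Dock1 at −1.26, Elmo1 at −1.25, Elmo2 at −1.07 and Gulp1 at 2.87, the last from 2 counts in LOS. Rhog turned to 0.19, so its higher level in LOS lay in the cells left out. With each cell given equal weight, Elmo2 was at −0.67, and 1 cell held 34.5% of its LOS counts.

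**Figure D3:**
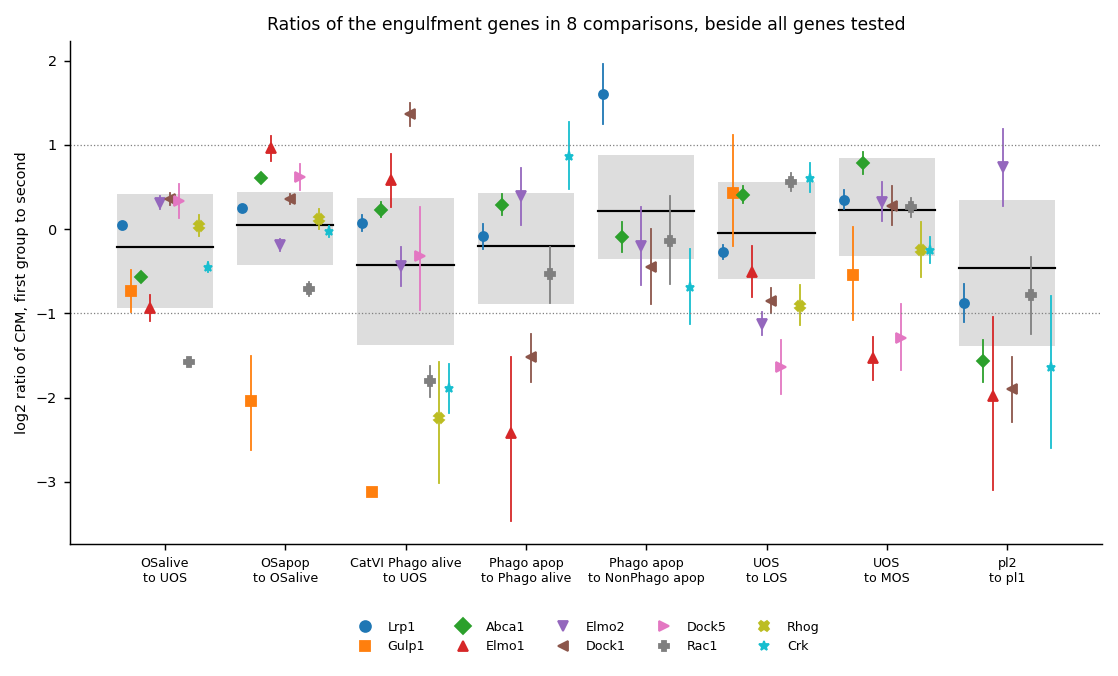
Log2 ratio of CPM of the 10 genes (symbols, with 95% counting intervals where both groups had counts) in 8 comparisons (x axis). Grey boxes span the quartiles of all genes tested, black lines their median, and dotted lines mark 2-fold. Rac1 stood at −1.57 in OSalive to UOS. In the Phago alive plates to UOS, 5 genes lay past 2-fold, among them Gulp1 with no count on the plates. There, 44.8% of all genes tested lay past 2-fold.

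**Figure D4:**
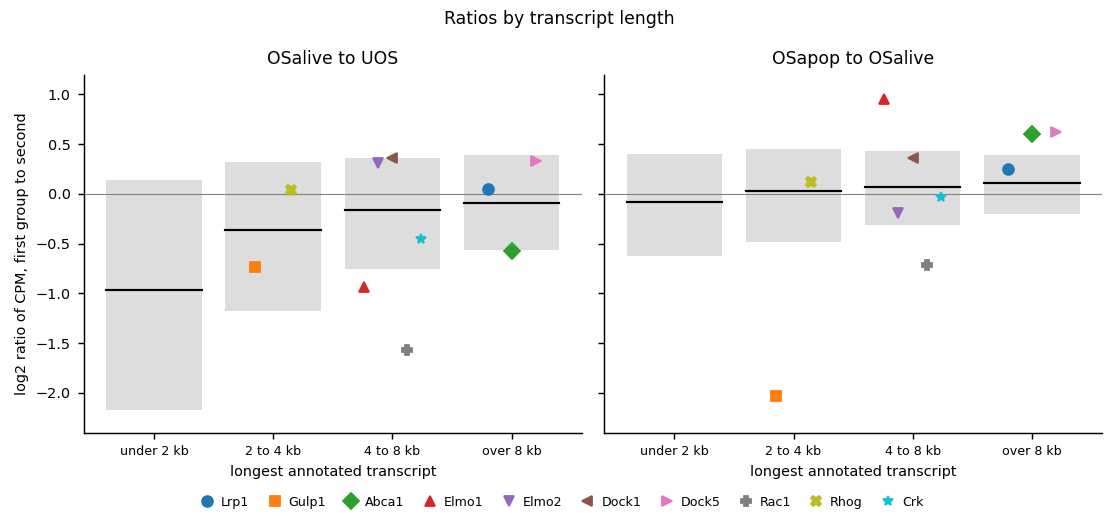
Log2 ratio of CPM (y axis) of the 10 genes (symbols) by the length class of their longest transcript (x axis), for OSalive to UOS and OSapop to OSalive. Grey boxes span the quartiles of all genes of the class and black lines their median. In OSalive to UOS the class medians ran from −0.96 under 2 kb to −0.09 over 8 kb, and Rac1 lay below the box of its class.

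Whether 1 cell held the parts of the complex together was read from counts of at least 1 Elmo gene, at least 1 Dock gene of the set and Rac1 in the same cell. Among cells as sequenced, this held for 65.2% of UOS cells, 68.8% of OSalive cells and 54.3% of OSapop cells. OSalive cells were deeper, with a median of 718809 counts against 159120 in UOS and 159210 in OSapop. At 20000 counts per cell, the shares were 39.4% of UOS cells (30.2 to 49.3%), 27.4% of OSalive cells (19.8 to 36.2%) and 22.9% of 83 OSapop cells (14.4 to 33.4%). The order of UOS and OSalive thus turned with depth, and the thinned intervals of the 3 groups overlapped. In the smaller groups the thinned share ran from 6.67% of 15 cells on plate 5 to 47.8% of 23 LOS cells. Of its parts, at least 1 Elmo gene was found in 57.8% of thinned UOS and 58.1% of thinned OSalive cells, and at least 1 Dock gene in 58.7% and 66.9%, whereas Rac1 gave 98.2% and 74.2%.

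**Figure D5:**
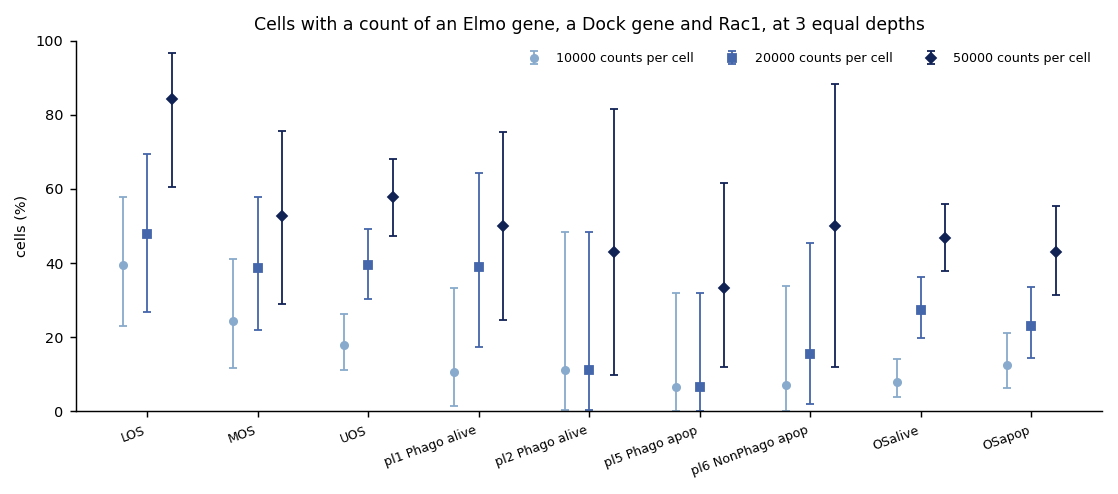
Share of cells with a count of at least 1 Elmo gene, at least 1 Dock gene and Rac1 (y axis, %) in the 9 groups (x axis), with each cell thinned to 10000, 20000 or 50000 counts. Bars are 95% Clopper-Pearson intervals, and cells below a depth are left out of it. Shares were higher at greater depth in most groups, and at 20000 counts UOS was at 39.4% and OSalive at 27.4%.

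A further 100 genes of the same pathway, in 5 lists of which 4 are described, gave the setting of these values. In OSalive to UOS, 80 had enough counts, of which 8 were 2-fold or more higher and 18 lower, near the shares over all genes (12.7% and 23.8%), with a median log2 ratio of −0.03 beside −0.21 over all genes. The list of WAVE and Arp2/3 genes, whose products build branched actin under RAC1, had 1 of 23 higher and 7 lower, with a median of −0.55. The part of transcript length in that value was not tested. The wider ELMO, DOCK, CRK and RAC family had 2 of 15 higher and 2 lower, with a median of 0.33. The list of exchange factors and adaptors also holds the receptors Pear1 and Megf10 and the gene Arhgdib, all named below. In it, 1 of 16 genes was higher and 3 were lower (median −0.07). Among genes of lipid export, 2 of 12 were higher and 3 lower (0.38).

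Named by the size of their ratio, the higher genes in OSalive began with Dock2, the DOCK exchange factor of leukocytes, at 1.19 CPM against 0.0809 CPM (2 counts) in UOS. The ratio of so few counts spans 1.99 to 6.94 on the log2 scale. The 10 leukocyte markers summed to 31.02 CPM in OSalive and 4.49 CPM in UOS, where 8 of them were found, and their part in the Dock2 ratio was not tested. Dock2 was highest on plate 2, at 24.3 CPM, where 7 of the markers were found and summed to 25.3 CPM. Limk1, a kinase that acts on cofilin, was at 10.5 against 2.51 CPM, and the transporter Abca9 at 3.32 against 0.728 CPM.

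The lower genes were led by Pear1, a receptor related to MEGF10, at 0.936 CPM in OSalive against 11.1 CPM in UOS and 53.2 CPM in LOS. Arpc5l, a subunit of the Arp2/3 complex, was at 5.04 against 39.5 CPM, and at 11.9 to 36.99 CPM in each group outside UOS and CatVII. Abca12, a lipid transporter of the epidermis, was at 3.21 against 21.5 CPM, and reached 74.8 CPM on plate 2. Lrp8, a receptor for reelin and apolipoprotein E, was at 0.655 against 5.06 CPM.

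In OSapop to OSalive, where the same OSalive sum is the reference, 7 of 82 pathway genes were 2-fold or more higher and 5 lower, against 9.44% and 12.2% of all genes, with a median of 0.13 beside 0.04 over all genes. The named ones were all scarce. Cyfip2, a member of the WAVE complex, was at 6.22 CPM in OSapop against 0.447 CPM in OSalive, and the corpse receptor Megf10 at 3.77 against 0.426 CPM. Lrp8 was at 3.57 against 0.655 CPM and Abcg4 at 2.84 against 0.822 CPM. Arhgdib, which holds small GTPases in their inactive state, was lower at 1.71 against 5.86 CPM, as were Abca9, Dock2 and Dock3, the last 2 with no count in OSapop.

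The genes whose levels followed a member most closely over the 9 groups were sought for the 3 members with the widest range, by Pearson's r of log2(CPM + 1) over 12202 genes of 10 CPM or more in at least 1 group. For Elmo1 they were Zfp703 (r = 0.98), Ehd1 (0.97) and Psmd2 (0.96). For Gulp1 they were Nrg1 (0.98), Ndufa11 (0.97) and Cx3cl1 (0.96), and for Crk Arhgap10 (0.97), Fundc2 (0.97) and Cracdl (0.965). The 9 points share stage, depth and libraries, and the best of so many genes is high by choice, so these are descriptions.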

How the data were processed

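Single cells were sorted and prepared by Smart-seq2. The authors aligned reads to mm39 with STAR 2.6, quantified them with Salmon 1.4.0 and compiled them in R 3.6.1; the deposited table holds estimated counts per gene, not normalized, for 1036 cells. Smart-seq2 does not mark strand, so reads of overlapping antisense genes cannot be told apart. Counts were rounded (10.9% of positive values were not whole). Gene symbols, positions and lengths came from GENCODE vM39 (GRCm39), in which 93.3% of identifiers were found. Cells in which 2000 or more genes had a count were used (39 LOS, 38 MOS, 112 UOS, 125 OSalive, 92 OSapop and 19, 9, 15 and 14 on plates 1, 2, 5 and 6), and 1 cell whose labels name conflicting stages was left out. Cells were summed per sort or plate. A second identifier without a symbol took 25.0 to 39.9% of the counts used, and an alternative total leaves it out. A gene entered a comparison if its counts in the 2 groups summed to 100 or more, and a count of 0 was set to 3. With 1 sample per group there was no test; genes that differed 2-fold or more are counted beside the same share of all genes. The genes and lists were chosen with earlier results of these data known. The text names all 10 genes, up to 4 other pathway genes per direction in OSalive to UOS and in OSapop to OSalive by the size of the ratio (1 gene and 1 list are not reported here), and the 3 genes most like each of the 3 members of widest range. Doublets were not called; a qPCR step of the study was meant to remove wells with several cells. In UOS, OSalive and OSapop, 23, 50 and 26 well labels had 2 passing cells, and an alternative keeps the first. Alternatives concerned scaling, cell weight and filter, depth, rounding, well labels, the deepest cell, plates and reference; those added after seeing the data used LOS or MOS as the reference, OSapop in place of OSalive, or left out cells with counts of other cell types. The interval method was tested on simulated Poisson counts, which hold counting error alone, so that test cannot cover spread between cells or copied molecules. Python 3.11.15, numpy 2.4.6, pandas 2.3.3, scipy 1.17.1, matplotlib 3.10.9 and edgeR 4.0.16 (TMM factors) in R 4.3.3 were used.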

Additional observations from a re-analysis of the deposited data

Results flagged for a closer look

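The log2 ratios of Elmo1 and Crk in apop to alive cells had opposite signs at the 2 catagen stages, though that of Crk at CatVII did not differ from 0 beyond counting error. For Elmo1, the log2 ratio of apop to alive was 0.96 at CatVII. At CatVI, plate 5 (Phago apop) gave −2.79 against plate 1 and −0.80 against plate 2 (both Phago alive). Against both plates summed it was −2.42, which turned to 0.89, from under 100 counts, in cells with 4000 or more detected genes. For Crk, it was −0.027 at CatVII, which turned to 0.05 with the total of all genes, and 0.54 and 2.18 at CatVI against plates 1 and 2. With 1 sample per group the difference between stages was not tested. Elmo1 had 11 counts on plate 5 and 10 on plate 2, and 1 cell held 76.9% of its counts on plate 1. The CatVI plates compared here carry the name Phago and the CatVII sorts carry no such name, so stage and sort cannot be told apart.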

How the results depend on the processing

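Of 994 ratios of single genes under alternatives, 672 stayed within the counting interval of the reported value. The sign changed in 58, of which 54 concerned ratios reported as under 2-fold. The 4 others were of ratios past 2-fold. Dock1 turned without Phago alive plate 1 (−0.17 in the Phago alive plates to UOS, 0.011 in Phago apop to Phago alive). Elmo1 turned in cells with 4000 or more detected genes (0.89 in Phago apop to Phago alive, 4.46 in plate 2 to plate 1). Both Elmo1 values came from under 100 counts. In OSalive to UOS, the count of genes past 2-fold was 1, and became 2 with the total of all genes, in cells with 4000 or more genes, without the deepest cell of each group, with UOS and MOS as reference or with OSapop in place of OSalive, and 3 with the mean over cells or with LOS or MOS as reference. In OSapop to OSalive it was 1, and became 2 with the total of all genes, in cells with 4000 or more genes, with the first cell of each well label or without the deepest cell, and 0 of 7 in thinned cells. Thinning, which leaves fewer genes with 100 counts, gave 2 of 6 in the Phago alive plates to UOS (5 as reported), 0 of 3 in Phago apop to Phago alive (2), 0 of 6 in UOS to LOS (2) and in UOS to MOS (2), and 1 of 2 in plate 2 to plate 1 (4). In Phago apop to Phago alive the count was 1 with the mean over cells or without the deepest cell and 4 with no count minimum. In Phago apop to NonPhago apop (1) it was 2 in cells with 4000 or more genes and 3 with no minimum. In UOS to LOS it was 1 with TMM factors or without the deepest cell and 5 without cells with counts of Ptprc, Pdgfra or Dct. Apart from settings whose construction leaves fewer cells or genes, the cause was not tested. Other scalings moved the median of all genes in OSalive to UOS by −0.11 to 0.34, so that small ratios there have no fixed direction. Depth limits Gulp1, Elmo1, Dock5 and Rhog on the CatVI plates most. No paired analysis was possible because the results come from no test and cells of a group carry no number of an animal.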
